A study of Mus musculus with 24 samples.

Results

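Among the places where the cohesin subunit Rad21 was found on the genome of a mouse pro-B cell line, 1836 lay at promoters and outside the common binding sites of CTCF. They were chosen by the positions of the parental peaks, in 3 steps. A common CTCF site is a merged stretch of CTCF peaks that a peak of each of the 3 parental CTCF libraries overlaps, and a common Rad21 site is the same for the 3 parental Rad21 libraries. Of the 23904 common Rad21 sites off chromosome 12, 1836 overlapped no common CTCF site and came within 1000 bp of a transcript start in the GENCODE vM1 annotation of mouse build mm9. They are called off-CTCF promoter sites here. The other common Rad21 sites were 4365 promoter sites on a common CTCF site, 2770 distal sites off CTCF and 14933 distal sites on CTCF. The choice used all 6 parental libraries, so every parental value below, alone or beside another line, is a description without a test.

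The study used chromatin immunoprecipitation with sequencing (ChIP-seq) in v-Abl transformed pro-B cell lines. All lines were RAG2 deficient and carried Emu-Bcl2, a transgene for the survival protein Bcl2, and all cells received the Abl kinase inhibitor STI-571 at 3 µM for 4 days. The parental line had no IAA, a plant auxin, and gave 3 Rad21 and 3 CTCF libraries. The CTCFdegron line, in which IAA triggers degradation of CTCF, had IAA at 500 µM for 6 h before STI-571 and throughout it, and gave 3 Rad21 and 3 CTCF libraries. The Rad21degron line gave 2 Rad21 libraries without IAA and 2 with the same IAA course. Between the parental and the CTCFdegron cells the line and the IAA change together, so their parts cannot be told apart. The labels do not say whether replicates came from separate cultures, so p-values measure only the spread between these libraries, which may be technical. The 16 peak lists held from 1384 to 67810 mouse peaks, and the 3 parental Rad21 lists held 67810, 43925 and 29724. The depth of each library is unknown, because the lists give peaks and not reads, and a list with fewer peaks holds fewer of any kind of site. All 6 CTCF lists and replicate 1 of the parental and CTCFdegron Rad21 lists came from libraries whose titles name no spike-in, and the titles of the other 8 name one of human HCT116 cells, a colon cancer line.

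Cohesin is a ring-shaped complex that extrudes chromatin loops, and Rad21 is the subunit that closes the ring. CTCF is a zinc-finger protein that binds a defined DNA motif and stalls cohesin when it meets the motif in the right orientation, which is why most cohesin in mammalian cells is found at CTCF sites. Cohesin is loaded and moves along chromatin without CTCF as well, and it is commonly seen at the promoters of active genes, where the transcription machinery, mediator and the loader Nipbl are found.

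The CTCF core motif was found more often in the off-CTCF promoter sites that lost Rad21 after CTCF degradation than in those that held it, and 3 of each are shown for that reason. They were the 3 highest-ranked of each kind by the authors' fold enrichment, and a stretch free of annotated exons is printed for each, from build mm9, 5′ to 3′ on the strand of the gene. Capitals mark matches to any of the 12 short motifs listed further on, in either orientation, or to the CTCF core motif. The first 3 had a Rad21 peak in all 3 CTCFdegron libraries, in both untreated Rad21degron libraries and in neither treated with IAA, and for each the stretch ends at the base before the start.
Tbl1xr1, chr3:21975374-21975573, plus strand: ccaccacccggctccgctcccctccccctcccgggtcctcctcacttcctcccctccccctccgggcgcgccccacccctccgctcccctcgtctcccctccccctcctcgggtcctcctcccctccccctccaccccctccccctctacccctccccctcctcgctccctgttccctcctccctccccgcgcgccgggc
Ier5, chr1:156946767-156946966, minus strand: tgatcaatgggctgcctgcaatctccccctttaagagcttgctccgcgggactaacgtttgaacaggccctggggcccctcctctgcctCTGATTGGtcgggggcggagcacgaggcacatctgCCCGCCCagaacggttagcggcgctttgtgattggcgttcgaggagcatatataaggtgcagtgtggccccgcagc
Polr2e, chr10:79502541-79502740, minus strand: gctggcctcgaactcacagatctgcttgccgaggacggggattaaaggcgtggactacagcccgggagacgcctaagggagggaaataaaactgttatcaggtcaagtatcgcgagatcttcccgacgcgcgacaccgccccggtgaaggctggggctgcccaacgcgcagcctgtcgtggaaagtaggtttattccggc

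The other 3 had no Rad21 peak in any of the 3 CTCFdegron libraries, and the stretch is centred on the CTCF core match.
Metap1d, chr2:71289908-71290107, plus strand: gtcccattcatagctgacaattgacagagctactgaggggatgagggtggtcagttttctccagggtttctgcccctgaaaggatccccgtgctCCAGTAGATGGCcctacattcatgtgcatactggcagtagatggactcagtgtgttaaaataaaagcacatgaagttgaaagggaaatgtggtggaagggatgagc
Cebpb, chr2:167514075-167514274, plus strand: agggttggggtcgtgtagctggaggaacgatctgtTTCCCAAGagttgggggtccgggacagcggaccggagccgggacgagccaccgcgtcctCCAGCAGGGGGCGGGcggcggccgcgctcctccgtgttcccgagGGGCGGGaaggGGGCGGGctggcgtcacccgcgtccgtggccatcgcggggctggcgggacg
Reln, chr5:21439240-21439439, minus strand: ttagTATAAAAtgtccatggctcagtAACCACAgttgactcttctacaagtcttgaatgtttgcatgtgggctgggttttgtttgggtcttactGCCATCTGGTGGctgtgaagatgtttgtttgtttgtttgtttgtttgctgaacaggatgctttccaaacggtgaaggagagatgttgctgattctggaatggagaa

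The lost stretches lie further from the start, 1226 bases upstream at Metap1d, 703 at Reln and 141 at Cebpb, so their base composition is not compared with that of the kept stretches. Each of these 3 lost sites held 1 CTCF core match, at bases 95 to 106 of the stretch counted from its 5′ end. None of the 8 highest-ranked kept sites held a match anywhere in its length, against 4 of the 8 highest-ranked lost sites, Siglech being the fourth. Each match lay outside every common CTCF site by the rule, although Metap1d, Cebpb and Reln each had a CTCF peak in 2 of the 3 parental libraries. Over whole sites, 9 of the 1836 off-CTCF promoter sites held the CTCF core, a share of 0.49%, compared with 13% of promoter sites on CTCF. Of those 9, 5 were among the 53 sites that lost Rad21 in all 3 CTCFdegron libraries, although the lost sites were narrow, with a median width of 606 bp. Of the 1291 sites that kept Rad21 in all 3, 3 held the core. The order was the same in other classes of site. On promoter sites on CTCF the core was in 18.9% of sites that lost Rad21 in all 3 and 10.9% of those that kept it. Of the 16 off-CTCF distal sites with the core, 11 were among the 481 that lost Rad21 in all 3.

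Single CTCF libraries had peaks at many of these promoters, so the sites are outside the common CTCF sites rather than free of CTCF peaks. A parental CTCF peak overlapped 71.5%, 33.4% and 37.5% of the 1836 sites in replicates 1, 2 and 3. By site, 301 had no CTCF peak in any parental library, 637 had one in 1 library, 717 in 2 and 181 in all 3, at places that did not merge into 1 common CTCF site. These peaks were weak. Their median percentile rank by fold enrichment within their own list was 19.8 ± 5.79 (SD, n = 3), compared with 74.4 ± 1.54 (SD, n = 3) on promoter sites on CTCF, and their median width was 181 ± 34.1 bp (SD, n = 3).

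The off-CTCF promoter sites were wide and of low to middling rank in the parental cells. Their width was 1256 bp at the median, from 914 to 1774 bp between the quartiles, compared with medians of 1102 bp on CTCF promoter sites and 934 bp on off-CTCF distal sites. Their mean percentile rank in the 3 parental Rad21 lists was 40.8 at the median and ran from 7.19 to 86.3, compared with 67.5 for promoter sites on CTCF and 41.7 for off-CTCF distal sites. By quartile of all common Rad21 sites, 1373 of the 1836 fell in the lowest quartile of rank, 426 in the next, 36 in the third and 1 in the highest. Site width depended on the library as well: the median peak on these sites was 1239 bp wide in parental replicate 1, 512 bp in replicate 2 and 217 bp in replicate 3.

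**Figure D1:**
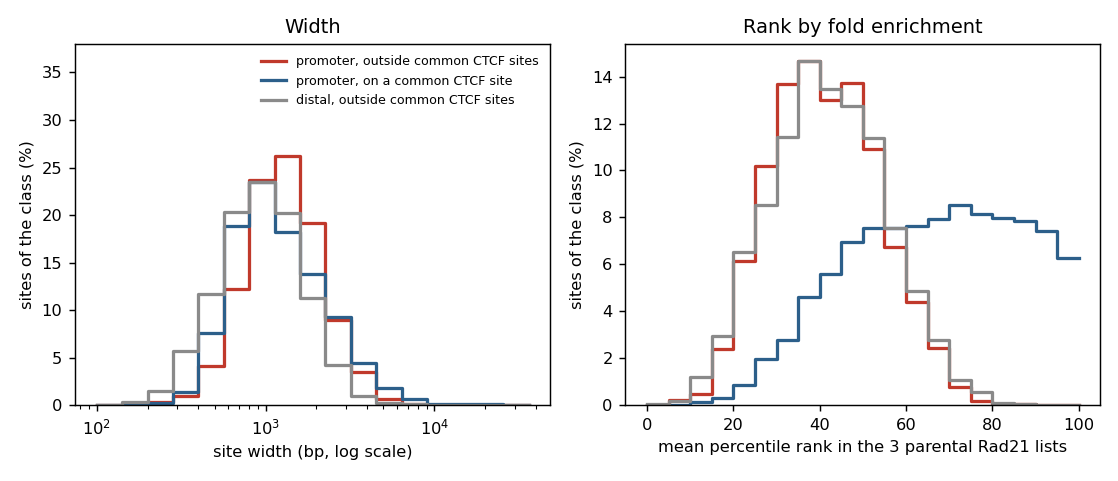
Distribution of site width (left, bp on a log axis) and of mean percentile rank by fold enrichment in the 3 parental Rad21 lists (right), as the percent of sites of each class, for off-CTCF promoter sites, promoter sites on CTCF and off-CTCF distal sites. The off-CTCF promoter sites, with a median of 1256 bp, lie to the right of the off-CTCF distal sites in width and overlap them in rank, while promoter sites on CTCF reach much higher ranks.

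At Dusp6, which encodes a phosphatase of ERK kinases, the site spanned 9427 bp (chr10:98723223-98732649). It spanned 8371 bp at Glcci1, a glucocorticoid-induced gene, 8064 bp at Lef1, a transcription factor of lymphocyte precursors, and 6275 bp at St3gal6, a sialyltransferase. All 4 had a Rad21 peak in the 3 CTCFdegron libraries and in both Rad21degron libraries without IAA. Dusp6 was the only site of the 4 with a Rad21 peak in a Rad21degron library with IAA.

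Few sites lay near the 1000 bp limit. An annotated start lay within the site itself for 1680 of the 1836, or 91.5%, compared with 73.5% of promoter sites on CTCF. The 3 sites nearest the limit on the inside, at Mgat5, Rassf2 and Iscu, lay 993, 995 and 995 bp from a start, with widths of 1689, 1026 and 4004 bp and mean parental ranks of 42.1, 24.3 and 57.3. The 3 just outside, at Hnrnpl, Cdhr2 and Ccng2, lay 1004, 1006 and 1006 bp away, with widths of 654, 521 and 1286 bp and ranks of 17.2, 41.4 and 62.4.

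The sites sat on the start and just inside the gene. For the 1686 sites whose nearest start was protein-coding, the centre lay 74.5 bp downstream of the start at the median, from -27 to 256 bp between the quartiles (minus is upstream). The centre was downstream of the start in 68.1% of them, compared with 53.3% of promoter sites on CTCF. Of all 1836 centres, 795 fell in an exon, 702 in an intron and 339 outside annotated genes. Among sites with a protein-coding nearest start, another gene started on the opposite strand within 1000 bp upstream for 18% of the 1686 off-CTCF promoter sites, 15.5% of promoter sites on CTCF and 13.9% of all protein-coding genes.

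**Figure D2:**
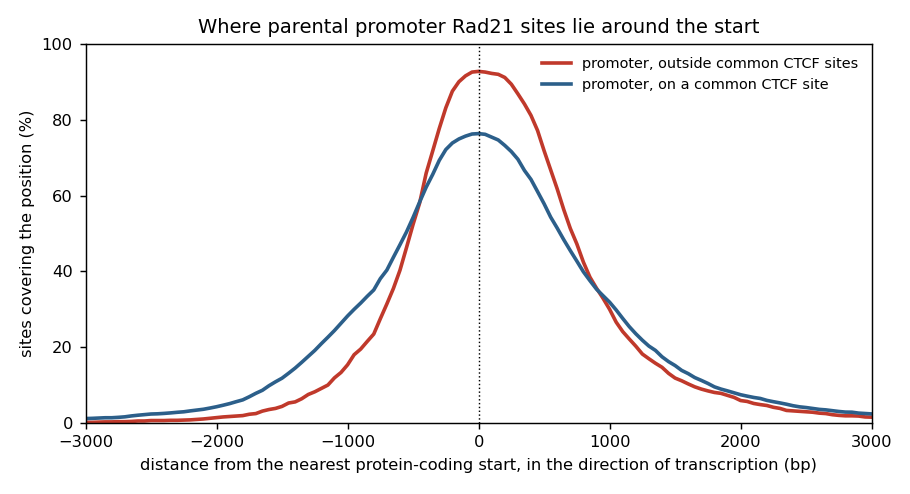
Percent of sites that cover each position around the nearest protein-coding start, with distance in bp in the direction of transcription, for 1686 off-CTCF promoter sites and 3753 promoter sites on CTCF. The off-CTCF curve peaks higher over the start and is shifted downstream, with 68.1% of its centres downstream of the start.

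Their DNA was rich in CpG. In the 300 bp around the centre, 64.3% of bases were G or C at the median, compared with 56.7% on promoter sites on CTCF and 47.3% on off-CTCF distal sites. A window was called CpG-island-like when at least 50% of its bases were G or C and its CpG count was at least 0.6 of that expected from its base composition. By this rule 1250 of the 1836 windows, 68.1%, were island-like, compared with 46.6% on promoter sites on CTCF, 2.92% on off-CTCF distal sites and 43.3% of windows at all 68226 protein-coding starts.

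Promoter motifs were searched in the same 300 bp windows on both strands. SP/KLF boxes (GGGCGGG), bound by Sp1 and related zinc-finger factors, were in 34.4% of the off-CTCF promoter windows and in 28.1% of windows at all protein-coding starts. ETS boxes (CCGGAAG), which factors such as Gabpa and PU.1 relatives recognise, were in 13.1% and 10.1%. The shares at the sites and at all starts were 4.79% and 4.87% for the GC-rich palindrome of NRF1, 3.92% and 3.66% for YY1 (AAGATGGC) and 8.99% and 12.3% for NFY (CCAATNNG). They were 8.82% and 6.77% for E2F (TTNGCGC), 1.47% and 1.81% for the cyclic AMP element (TGACGTCA) and 2.07% and 2.87% for ZNF143 (ACTACAA). Lymphoid motifs were rare, with the EBF palindrome in 1.25% and 1.01%, RUNX (TGTGGTT) in 3.98% and 4.56% and IKAROS (CTTGGGAA) in 1.09% and 1.72%. The TATA box (TATAAAA) was in 2.07% and 3.62%. The motifs were searched separately and their matches can overlap, as the CTCF core and an SP/KLF box do at Cebpb. The CTCF core was in 5 of the 1836 windows, 0.272%, compared with 8.06% of windows on promoter sites on CTCF and 0.485% at all starts.

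These promoters belonged to 2157 annotated genes, of which 1877 were protein-coding, 94 lincRNA, 77 processed transcripts, 26 pseudogenes, 23 immunoglobulin variable genes and 22 miRNA genes. The 1877 are 8.66% of the 21676 annotated protein-coding genes off chromosome 12, and 234 of them also had a promoter site on CTCF. Of 10 pro-B markers, 8 had an off-CTCF promoter site, among them the receptor signalling genes Cd79a and Cd79b, the surrogate light chain genes Vpreb1 and Igll1, and Rag1, Rag2 and Dntt. The 2 without such a site were the transcription factor genes Pax5 and Ebf1. Promoter sites on CTCF lay at 3 of the same 10 and at 18.3% of all genes. Of 5 T-cell markers, 5 myeloid markers and 4 erythroid markers, none had a site, and of 1087 olfactory receptor genes 3 did. The lists were drawn up with earlier results of these data known, and the shares are descriptions.

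**Figure D3:**
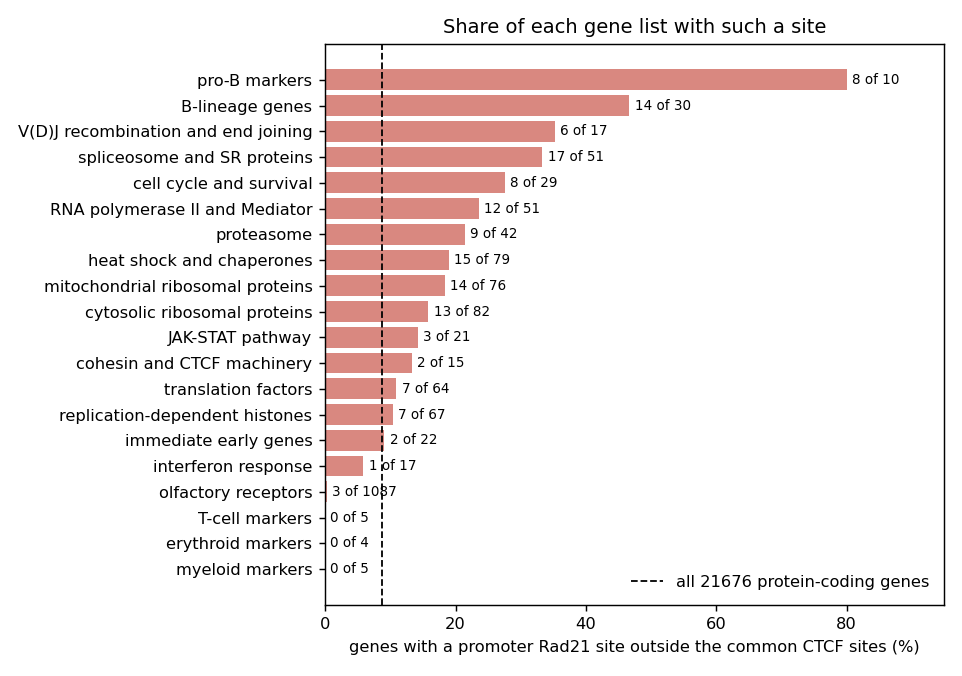
Percent of the genes of each list with an off-CTCF promoter site, with the count beside each bar. The dashed line marks 8.66%, the share of all 21676 protein-coding genes, and pro-B markers, with 8 of 10, stand highest.

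Among 30 B-lineage genes, 7 of them also pro-B markers, 14 had such a site, and 15 sites lay at them. Promoter sites on CTCF lay at 19 of the 30. The median width of the 15 sites was 2317 bp, compared with 1256 bp for all 1836. The transcription factor genes Irf4, Ikzf1, Lef1, Runx1 and Irf8 were covered by sites of 5804, 4220, 8064, 2787 and 2317 bp, all with a Rad21 peak in every CTCFdegron library and in both Rad21degron libraries without IAA. Blnk, the adaptor of the pre-B receptor, had a site of 1912 bp with the same fate. Spib, Tcf3 and Igll1 had smaller sites of 829, 567 and 996 bp, found in 1, 2 and 2 of the 3 CTCFdegron libraries. Of these 15 sites, 11 kept Rad21 in all 3 CTCFdegron libraries and none was without it in all 3, close to the 70.3% and 2.89% of all 1836 sites.

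Recombination genes were covered as well. Of 17 genes for V(D)J recombination and end joining, 6 had an off-CTCF promoter site: the recombinase genes Rag1 and Rag2, Dntt, which encodes the terminal transferase, Dclre1c, which encodes the hairpin-opening nuclease Artemis, the polymerase gene Poll and the ligase cofactor Xrcc4. The list shares 3 genes with the pro-B markers, and promoter sites on CTCF lay at 7 of the 17 genes. The site at Dntt was 2661 bp wide with no CTCF peak in any of the 6 CTCF libraries, and Rad21 was on it in all 3 CTCFdegron libraries. Of the 7 sites at these genes, 6 kept Rad21 in all 3 CTCFdegron libraries, a count too small to set against the 70.3% of all 1836 sites.

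Housekeeping groups lay between 8.66% and these lineage lists. Sites were found at 17 of 51 genes for spliceosome and SR proteins, at 12 of 51 for RNA polymerase II and Mediator and at 9 of 42 for the proteasome. They were found at 15 of 79 for chaperones, 14 of 76 for mitochondrial and 13 of 82 for cytosolic ribosomal proteins, and 7 of 64 for translation factors. In the same order, promoter sites on CTCF lay at 15 of 51, 22 of 51, 9 of 42, 13 of 79, 23 of 76, 33 of 82 and 21 of 64. Their share of all protein-coding genes was 18.3%. Rad21 was kept in all 3 CTCFdegron libraries at 12 of 13 sites of cytosolic and 11 of 16 of mitochondrial ribosomal protein genes, 15 of 18 of spliceosome, 10 of 14 of chaperone and 5 of 8 of proteasome genes, compared with 70.3% of all 1836 sites. Cell-cycle and survival genes had sites at 8 of 29, among them Ccnd2, Ccnd3, Cdk4, the Cdk inhibitor Cdkn1b and the retinoblastoma gene Rb1. JAK-STAT genes had sites at 3 of 21 (Jak1, Stat5b and Cish), genes of the cohesin and CTCF machinery at 2 of 15 (Wapal, a cohesin release factor, and Mau2, a subunit of the loader), and replication-dependent histones at 7 of 67. Immediate early genes had 2 of 22 and interferon response genes 1 of 17. Promoter sites on CTCF were more frequent in each of these lists. They lay at 14 of 29 cell-cycle and survival, 12 of 21 JAK-STAT and 6 of 15 machinery genes. They lay at 37 of 67 histone, 13 of 22 immediate early and 4 of 17 interferon response genes.

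After CTCF degradation most off-CTCF promoter sites still had a Rad21 peak. The share was 97.1%, 93.1% and 70.8% in the 3 CTCFdegron libraries, 87.0 ± 14.2% (SD, n = 3). On promoter sites on CTCF it was 69.3 ± 10.2% (SD, n = 3), and on off-CTCF distal sites 64.9 ± 19.9% (SD, n = 3). Within each library the off-CTCF promoter sites stood higher than both, by 17.7 ± 4.03 percentage points (SD, n = 3) over promoter sites on CTCF and by 22.1 ± 6.20 points (SD, n = 3) over off-CTCF distal sites. The exact two-sided sign-flip test over 3 libraries gave p = 0.25 for each, the smallest it can give, so neither can pass 0.05. Replicate 3, the shortest list with 15690 mouse peaks, was the lowest for every class.

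Both differences depend on how lists and sites are cut. With every mouse list shortened to its 1384 strongest peaks, 66 sites met the rule, and the differences were -18.2 points from promoter sites on CTCF and 2.80 points from off-CTCF distal sites. For the 301 sites with no CTCF peak in any parental library they were 9.89 ± 12.6 and 14.3 ± 4.03 points (SD, n = 3). The first was 4.88 points when, besides, every promoter site with a CTCF peak in any parental library was counted as on CTCF, 5900 in all. The second was 21.2 points when only the 791 distal sites with no parental CTCF peak were compared. Averaged with equal weight over quartiles of parental rank, the differences were 22.0 and 15.9 points. In the lowest quartile, with 1373 of the 1836 sites, the share was 84.8 ± 16.6% (SD, n = 3). There it was 76.4 ± 13.7% on promoter sites on CTCF and 59.5 ± 23.0% on off-CTCF distal sites (SD, n = 3). In the third quartile, with 36 of the sites, the shares were 96.3 ± 1.60%, 64.1 ± 9.04% and 90.2 ± 6.89% (SD, n = 3). When parental replicate 3 took no part in choosing sites, 3921 sites met the rule and the difference from distal sites was 35.2 points.

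**Figure D4:**
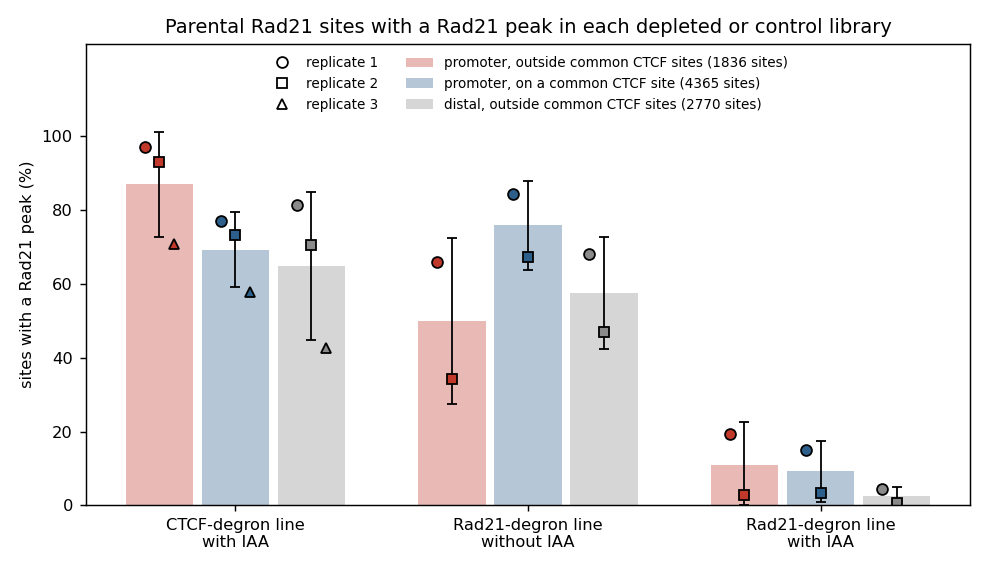
Percent of common Rad21 sites with a Rad21 peak, for 3 classes of site in the CTCFdegron line with IAA (3 libraries) and the Rad21degron line without and with IAA (2 libraries each). Bars are means, error bars are the SD (cut at 0) and symbols are single libraries, and the off-CTCF promoter sites stand highest in the CTCFdegron libraries at 87.0% and below promoter sites on CTCF in the Rad21degron libraries without IAA.

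By site, 1291 of the 1836 (70.3%) had a Rad21 peak in all 3 CTCFdegron libraries, compared with 35.6% of all 23904 common Rad21 sites. A peak in 2 libraries was found at 427, in 1 library at 65 and in none at 53 (2.89%, compared with 41.5% of all sites). The kept sites were wider, with a median of 1386 bp, than the 492 sites found in 1 or 2 libraries, with 1064 bp, and the 53 lost sites, with 606 bp. Their mean parental ranks were close, at medians of 42.9, 36.8 and 39.1. A start lay inside the site for 95.5% of kept sites and 50.9% of lost sites. In the central 300 bp, SP/KLF boxes were in 36.0% of kept and 11.3% of lost sites, and ETS boxes in 15.6% and 1.89%.

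CpG content went with the fate of the site. CpG-island-like sites had a Rad21 peak in 91.1 ± 12.6% of cases (SD, n = 3 CTCFdegron libraries) and the other 586 sites in 78.3 ± 17.7% (SD, n = 3). Of the 1250 island-like sites 8 were lost in all 3 libraries, and of the 586 others 45 were. The split was also seen within the lowest quartile of parental rank, where 72.3% of 959 island-like sites and 48.8% of 414 others were kept in all 3. This split was made after the fates were seen, was not tested, and goes together with CTCF peaks in the depleted cells, which lay on 75.5% of island-like and 53.6% of other sites. On promoter sites on CTCF the corresponding shares with a Rad21 peak were 89.1 ± 10.4% and 52.0 ± 9.99% (SD, n = 3).

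The named kept sites, chosen for a peak in every CTCFdegron library, had fold enrichments there that overlapped the parental values, by little at Ssbp3. At Tbl1xr1, a subunit of the NCoR and SMRT corepressors (site chr3:21974834-21977859), the authors' fold enrichment was 11.6, 10.3 and 7.19 in the parental Rad21 libraries (mean 9.69 ± 2.27, SD, n = 3) and 11.2, 9.61 and 6.23 in the CTCFdegron libraries. It was 6.14 and 5.02 in the Rad21degron libraries without IAA, and no peak was listed with IAA. The immediate early gene Ier5 had 10.7, 8.24 and 5.49 in the parental and 8.15, 6.28 and 4.93 in the CTCFdegron libraries. In both genes the longest list of each group gave the highest value and the shortest the lowest, and the groups overlap. Polr2e, a subunit shared by the nuclear RNA polymerases, had 7.82, 7.39 and 5.94 in parental and 8.22, 7.15 and 5.08 in CTCFdegron libraries. Vgll4, a cofactor of TEAD factors, had 7.67, 7.72 and 5.78, and then 8.63, 7.79 and 6.38. Fold enrichment was not tested between lists.

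Gem, a small GTPase, Acsf3, a mitochondrial malonyl-CoA synthetase, Ssbp3, a partner of the adaptor Ldb1, and Ufm1, a ubiquitin-like modifier, had parental means of 7.01 ± 1.64, 6.70 ± 1.25, 6.83 ± 1.62 and 7.11 ± 2.04 (SD, n = 3). Their CTCFdegron values ran from 4.25 at Ssbp3 in replicate 3 to 8.71 at Ufm1 in replicate 1. These 8 sites are the highest-ranked of the 325 (17.7%, compared with 22% of all sites) that had a Rad21 peak in all 3 CTCFdegron and both untreated Rad21degron libraries and none with IAA, among 290 with a protein-coding nearest start and a unique centre.

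**Figure D5:**
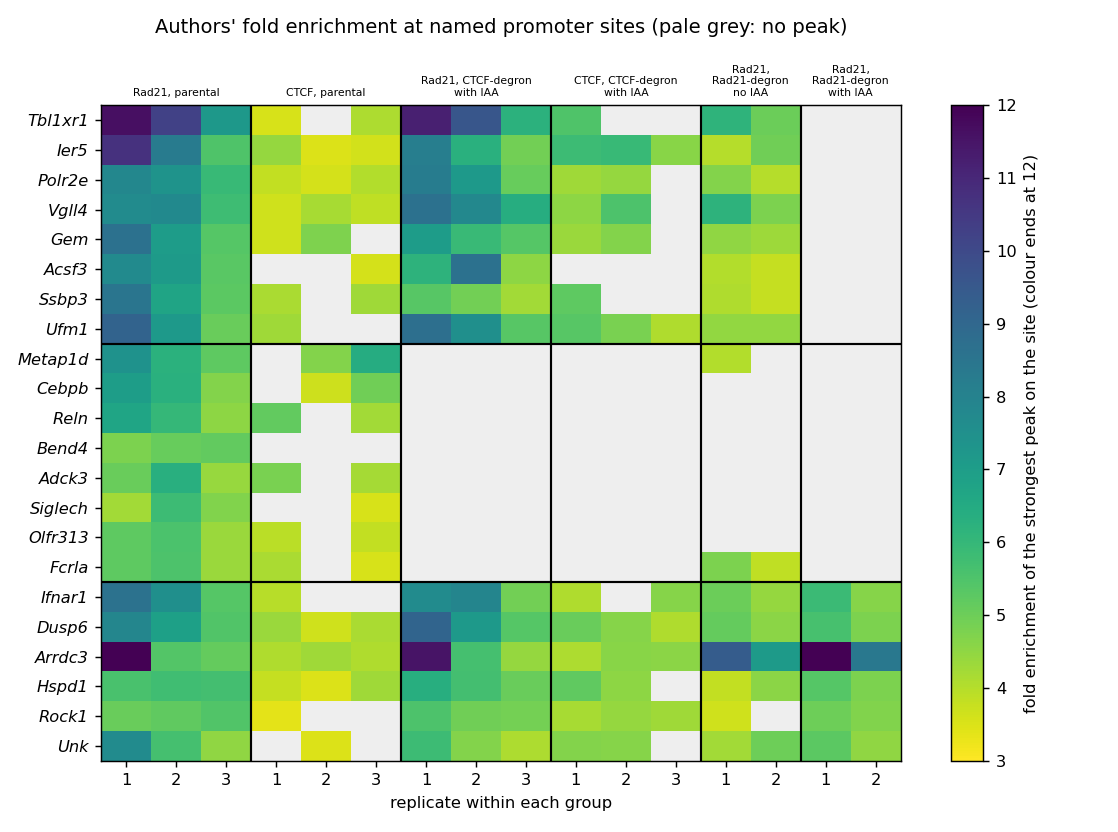
The authors' fold enrichment of the strongest peak on 22 named off-CTCF promoter sites (rows) in the 16 libraries (columns, by group and replicate), with no listed peak in pale grey. The top block keeps Rad21 in the CTCFdegron libraries (11.2 at Tbl1xr1 in replicate 1), the middle block has no Rad21 peak there, and the bottom block has Rad21 peaks even in both Rad21degron libraries with IAA.

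The 8 named lost sites were the highest-ranked of 31 with a protein-coding nearest start and a unique centre. The named kept sites were picked by rank from 290, so the ranks of the named sites are not compared. Over all kept and lost sites the median ranks were 42.9 and 39.1. Metap1d, a mitochondrial methionine aminopeptidase (site chr2:71289858-71290397, outside annotated genes), had a parental fold enrichment of 7.42, 6.24 and 5.23, and no Rad21 or CTCF peak in any CTCFdegron library. Cebpb, a transcription factor of myeloid cells and adipocytes, had 6.99, 6.27 and 4.68, and Reln, which encodes the neuronal guidance protein reelin, had 6.70, 6.01 and 4.53. The others were Bend4 (5.01 ± 0.22, SD, n = 3), the coenzyme Q kinase Adck3 (5.26 ± 0.99), Siglech, a lectin of plasmacytoid dendritic cells (4.92 ± 0.82), the olfactory receptor Olfr313 (5.05 ± 0.62) and Fcrla, an Fc receptor relative of B cells (5.04 ± 0.60). Fcrla had a Rad21 peak in both Rad21degron libraries without IAA, Metap1d in 1 of them, and the other 6 in neither. Bend4 alone of the 8 had no CTCF peak in any parental library. Over all lost sites, 24.5% had no parental CTCF peak, compared with 16.4% of all off-CTCF promoter sites. Such a peak was found in all 3 parental libraries at 1.89% of lost sites, compared with 9.86%. The shares with it in 1 and in 2 libraries were 34.0% and 39.6% of lost sites, compared with 34.7% and 39.1%. These differences were not tested.

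Sites at immunoglobulin light-chain variable genes were often lost, a split made after the fates were seen and not tested. The nearest start belonged to such a gene at 23 of the 1836 sites, 21 in the kappa locus and 2 in the lambda locus. Of these 23, 4 kept Rad21 in all 3 CTCFdegron libraries (Igkv2-112, Igkv15-103, Igkv6-23 and Igkv6-15) and 9 lost it in all 3, which is 9 of the 53 lost sites. Their share with a Rad21 peak was 40.6 ± 21.9% (SD, n = 3) in CTCFdegron libraries, compared with 88.5 ± 13.9% (SD, n = 3) at the 1686 sites nearest a protein-coding start. In the Rad21degron line without IAA the order was the other way, 69.6 ± 12.3% (SD, n = 2) against 49.8 ± 22.6% (SD, n = 2). With IAA none of the 23 had a peak. Their median width was 1577 bp. A CTCF peak lay on 5 of them (21.7%) in at least 1 CTCFdegron library, compared with 68.5% of all 1836. Of the 23, 6 had a centre that occurs more than once in the genome, so their reads may belong to a neighbouring copy.

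The CTCF antibody gave peaks on many off-CTCF promoter sites in CTCFdegron cells, and not all lay on sites with a parental CTCF peak. Of the 301 sites with no CTCF peak in any parental library, 25.6 ± 14.8% (SD, n = 3) had one there. The parental share of all 1836 sites was 47.5 ± 20.9% (SD, n = 3). A CTCF peak lay on 60.5%, 51.3% and 20.3% of the 1836 sites, 44.0 ± 21.0% (SD, n = 3), compared with 24.5 ± 14.2% (SD, n = 3) of off-CTCF distal sites and 44.9 ± 14.8% (SD, n = 3) of promoter sites on CTCF. The difference from off-CTCF distal sites was 19.5 ± 7.01 percentage points (SD, n = 3, higher in 3 of 3 libraries, exact two-sided sign-flip p = 0.25). Averaged with equal weight over quartiles of parental rank, this difference was 9.62 points. In the lowest quartile, with 1373 of the sites, the shares were 42.5 ± 20.3% and 18.9 ± 11.8% (SD, n = 3). In the third, with 36 of the sites, they were 53.7 ± 23.1% and 60.4 ± 22.5% (SD, n = 3). With at least 50% of the site covered the difference was 0.76 points. For the 301 sites with no parental CTCF peak it was 1.08 points from all off-CTCF distal sites. It was 12.4 points from the 791 distal sites that also had no parental CTCF peak. By site, 326 had a CTCF peak in all 3 libraries (17.8%, compared with 15.1% of all common Rad21 sites) and 578 in none (31.5%, compared with 60% of all).

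Rad21 peaks were more often found where CTCF peaks were found in CTCFdegron cells, as in the other classes of site. At the 578 sites with no CTCF peak in any CTCFdegron library, 72.5 ± 22.7% (SD, n = 3) had a Rad21 peak there, and at the 326 with 3 such peaks 94.8 ± 9.03% (SD, n = 3). Width went with it, at medians of 1075 and 1518 bp. The same was seen, with a wider range, on promoter sites on CTCF (30 ± 11.9% and 97.2 ± 4.48%) and off-CTCF distal sites (46.7 ± 24.6% and 97.5 ± 3.85%, SD, n = 3). The 301 sites without any parental CTCF peak gave 79.2 ± 22.8% (SD, n = 3). The order was also seen in the untreated Rad21degron line. There the 578 sites had a Rad21 peak in 36.9 ± 19.7% of cases and the 326 sites in 59.8 ± 23.9% (SD, n = 2). None of the 53 lost sites had a CTCF peak in CTCFdegron cells, compared with 1023 of the 1291 kept sites, or 79.2%. The input libraries were not used here, and the part of these CTCF peaks in the share with Rad21 was not tested.

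In the untreated Rad21degron line, fewer off-CTCF promoter sites had a Rad21 peak than promoter sites on CTCF. The share was 65.8% and 34.2% in the 2 libraries, 50.0 ± 22.4% (SD, n = 2), compared with 75.8 ± 12.1% (SD, n = 2). The difference of -25.8 ± 10.3 points (SD, n = 2, lower in both) had p = 0.5 in the exact two-sided sign-flip test, the smallest that 2 libraries allow. Off-CTCF distal sites had 57.5 ± 15.1% (SD, n = 2), a difference of -7.55 ± 7.30 points (p = 0.5, same exact test). Averaged with equal weight over quartiles of parental rank the differences were -2.38 and -6.29 points. For the 301 sites with no parental CTCF peak they were -37.1 and -18.8 points from the unchanged comparison classes. With those classes also divided by any parental CTCF peak they were -31.0 and -6.68 points. The difference from distal sites turned to 2.13 points with the 3921 sites chosen without parental replicate 3.

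By site, 549 had a Rad21 peak in both of these libraries (29.9%, compared with 63.4% of all common Rad21 sites) and 549 had it in neither (29.9%, compared with 16.1%). The 549 in neither had a median width of 1059 bp and were 69.2% island-like. Where a peak was present it was narrow and weak. The median peak width was 209 and 167 bp in the 2 libraries, and relative to off-CTCF distal sites the log2 ratio of median widths was -0.48 ± 0.11 (SD, n = 2, exact sign-flip p = 0.5), which turned to 0.18 with every list shortened to 1384 peaks. The difference in median rank from off-CTCF distal sites was -8.40 ± 3.07 points (SD, n = 2, exact sign-flip p = 0.5).

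With IAA in the Rad21degron line, a Rad21 peak lay on 19.2% and 2.78% of the off-CTCF promoter sites, 11% ± 11.6 (SD, n = 2), compared with 50.0% without IAA. The groups do not overlap and the difference was -39.0 points, with p = 0.33 in the exact two-sided permutation test, the smallest that 2 against 2 libraries allow. Leaving out replicate 1 without IAA gave -23.1 points, and a q-value of 0.001 or less gave -9.28 points. By site, 1459 had no peak in either library with IAA (79.5%, compared with 93.4% of all), and 402 had it in both without and neither with IAA (21.9%, compared with 58.9%).

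The share with a Rad21 peak with IAA was compared with the other classes. It was 2.44 ± 2.68% (SD, n = 2) on off-CTCF distal sites and 9.29 ± 8.28% (SD, n = 2) on promoter sites on CTCF. The differences were 8.57 ± 8.95 points (SD, n = 2, higher in both libraries, exact sign-flip p = 0.5) and 1.71 ± 3.35 points (SD, n = 2, higher in 1 of 2, exact sign-flip p = 1). The second turned to -0.66 points without replicate 1 with IAA and to -2.48 points for the 301 sites with no parental CTCF peak.

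Rad21 peaks found with IAA went with CTCF antibody peaks and CpG content. Not all were left from the untreated line. Of the 549 sites with no Rad21 peak in either library without IAA, 11.8% had one in at least 1 library with IAA. Of the 377 sites with a Rad21 peak in at least 1 library with IAA, 345 (91.5%) also had a CTCF peak in CTCFdegron cells, compared with 68.5% of all 1836. At least 1 peak with IAA lay on 317 of the 1250 island-like sites and on 60 of the 586 others. A Rad21 peak in both libraries with IAA was found at 27 sites (1.47%, compared with 1.34% of all), and all 27 had a CTCF peak in CTCFdegron cells.

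The 6 highest-ranked of these 27 with a protein-coding nearest start and a unique centre, 25 in all, were the following. Ifnar1, the type I interferon receptor subunit (site chr16:91484304-91487511), had a fold enrichment of 5.85 and 4.62 with IAA, compared with 5.01 and 4.41 without. Dusp6 had 5.63 and 4.78 with IAA and 5.12 and 4.58 without. At Arrdc3, an alpha-arrestin, values were 13.3 and 8.40 with IAA and 9.39 and 7.08 without, and its parental values of 17.1, 5.40 and 5.14 were the least even of the named sites. Hspd1, which encodes a mitochondrial chaperonin and shares its promoter with Hspe1, had 5.36 and 4.79 with IAA. The kinase gene Rock1 had 4.98 and 4.72, and the RNA-binding protein gene Unk 5.27 and 4.51. Without IAA the values were 3.81 and 4.55 at Hspd1, 4.24 and 4.98 at Unk, and 3.65 with no peak in replicate 2 at Rock1. The groups overlap at Ifnar1, Dusp6, Arrdc3 and Unk, and at Hspd1 and Rock1 both values with IAA were above those without. Listed peaks had higher values with IAA in general. Their median was 4.84 ± 0.08 with and 4.10 ± 0.02 without IAA on off-CTCF promoter sites (SD, n = 2). On off-CTCF distal sites it was 4.83 ± 0.11 and 4.26 ± 0.06 (SD, n = 2). The lists with IAA held only 3588 and 1384 mouse peaks, and the named sites were chosen for a peak in both. The background behind the fold enrichment is not given in the sources used here, and these values were not tested.

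The number of Rad21 peaks at promoters off CTCF was also counted in every list, regardless of the common sites. It was 8408, 5449 and 3163 in the parental and 7587, 6426 and 4126 in the CTCFdegron libraries, and the groups overlap. The log2 difference was 0.16, a value without a test, because the parental lists chose the sites. Among all Rad21 peaks off the common CTCF sites, the promoter share was 24.6%, 35.8% and 40.4% in parental and 36.7%, 47.9% and 55.8% in CTCFdegron libraries. These groups overlap too, and their means differed by 13.2 percentage points. The share was higher in each shorter list within a group. With every list shortened to 1384 peaks, the log2 difference in number was 0.61 and the share differed by 5.55 points, while a q-value of 0.001 or less gave -0.26 and 22.2 points. The 10 tests of the other comparisons gave Benjamini-Hochberg adjusted p-values of 0.556 to 1.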

How the data were processed

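ChIP-seq peak lists of 16 immunoprecipitated libraries were analysed, and 8 input libraries were not used here. Reads were aligned to a hybrid of mouse mm9 and a further sequence, per the labels, and Bowtie2 2.2.8 and SAMtools 1.8 are named in the submitters' processing notes. Which peak caller was used, with which threshold, and how inputs entered are not given in the sources used here. Each deposited list holds a fold enrichment (a linear ratio), -log10 values of p and q (each p-value and q-value as its negative logarithm), and a whole-number score per peak, all the authors' own. Replicates were not pooled. Fold enrichment was used to rank peaks within their own list, never to test lists against each other.

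Only peaks on mouse chromosomes were used. Chromosome 12 was left out because the highest peak end there, 121611197, lies beyond the mm9 length of 121257530. A peak counts as on a site when they share at least 1 bp. Differences between classes of site were taken within each library and tested with exact sign-flip tests, and groups of libraries with exact permutation tests. The code was tested on simulated peak lists. A centre counts as repeated when its central 31 bp occur more than once in mm9. Same-numbered libraries deviated together with correlations of -0.075 to 0.056, so the numbers were not taken as pairs.

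The sites and the gene lists were chosen with earlier results of these data known. Named sites have a protein-coding nearest start and a unique centre. In order of mean parental rank they are the 8 highest that kept Rad21 in the CTCFdegron line and the Rad21degron line without IAA and had none with IAA, the 8 highest lost, the 6 highest left with IAA, and up to 3 of each list, besides the 4 widest. Genes named beyond these were chosen after their values were seen. Sequences and annotation come from NCBIM37 (mm9) and GENCODE vM1. Python 3.11.15, numpy 2.4.6, pandas 2.3.3 and pysam 0.24.0 were used.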

Additional observations from a re-analysis of the deposited data

How the results depend on the processing

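The 12 results were recomputed under 270 alternatives in all, and 258 kept their direction. No result reached a p-value under 0.05 in any setting, which these group sizes do not allow, so p-values say nothing of stability. The alternatives that leave a parental library out of the choice of sites and the one that keeps only sites with no parental CTCF peak against unchanged comparison classes were added after seeing the data.

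The number of off-CTCF promoter sites was 835 with a q-value of 0.001 or less, 66 with lists shortened to 1384 peaks, 299 with at least 50% of a site covered, 4091 with sites of at least 2 parental Rad21 lists and 301 with no CTCF peak of any parental list. It ran from 1480 to 3921 with a parental library left out of the choice, the highest without Rad21 replicate 3, the shortest parental list.

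With lists shortened, the differences from promoter sites on CTCF turned to -18.2 points after CTCF degradation and -14.0 points after Rad21 degradation, and the width ratio in the untreated Rad21degron line to 0.18. The second was also -1.04 points with at least 50% of a site covered and -2.48 points for the 301 sites with no parental CTCF peak, or -3.14 points when promoter sites with any parental CTCF peak also joined the comparison class. The untreated Rad21degron difference from distal sites turned to 1.999 points with sites of at least 2 parental lists. The log2 difference in promoter peaks turned to -0.26 with a q-value of 0.001 or less. The cause was not tested.

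With a library left out, the differences after CTCF degradation ran from 12.8 to 20.035 points (promoter sites on CTCF) and 19.2 to 35.2 points (distal sites). In the untreated Rad21degron line they ran from -33.1 to -18.6 and from -12.7 to 2.13 points. With IAA they ran from 2.24 to 14.9 points for distal sites and from -0.66 to 4.08 points for promoter sites on CTCF. The change with IAA ran from -54.8 to -23.1 points, the width ratio from -0.56 to -0.40 and the rank difference from -10.6 to -6.23 points. The difference in CTCF peaks in CTCFdegron cells ran from 15.3 to 24.3 points. The promoter peak number ran from -0.21 without parental replicate 3, and -0.03 without CTCFdegron replicate 1, to 0.50, and the promoter share from 8.68 to 18.3 points.

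As a replicate block, same-numbered libraries gave the same differences (-39.0 points, 0.16 and 13.2 points), with an exact p of 0.5 for the first, and no call changed. Spike-in libraries alone gave 16.5 and 25.3 points for the CTCFdegron differences. Without read counts, a site missing from a short list cannot be told apart from a site missing in the cells.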

Other observations

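The off-CTCF promoter sites were spread unevenly over chromosomes. Chromosome 11 held 202 of them, or 12.2 per 100 annotated protein-coding genes, and chromosome 16 held 81, or 12.02 per 100. The X chromosome held 24, or 2.58 per 100, the lowest value among chromosomes with any site. It held 1.31% of the 1836 sites and 4.30% of the protein-coding genes. Of all 23904 common Rad21 sites it held 564, compared with 1970 on chromosome 11. Of the 24 off-CTCF promoter sites there, none was lost in all 3 CTCFdegron libraries and 11 kept Rad21 in all 3, compared with 2.89% and 70.3% of all 1836. A CTCF peak in at least 1 parental library lay on 7 of the 24, and on all but 301 of the 1836. The median distance from a site to the nearest common CTCF site was 9653 bp, compared with 10713 bp for off-CTCF distal sites, and 150 of the 1836 lay within 1000 bp of a common CTCF site.

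Few sites were nearest to a start that was not protein-coding. The nearest start was that of a lincRNA at 39 sites, of which 26 kept Rad21 in all 3 CTCFdegron libraries and 1 lost it in all 3, near the shares of all sites. At the 88 sites whose nearest start was of another type, apart from protein-coding, lincRNA and immunoglobulin variable genes, 46 kept it in all 3 and 12 lost it in all 3. The 58 sites with a repeated centre had a Rad21 peak in 79.9 ± 14.4% of cases (SD, n = 3 CTCFdegron libraries), compared with 87.2 ± 14.2% (SD, n = 3) at the 1778 with a unique centre.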
